A study of Arabidopsis thaliana with 7 samples.

Results

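Class III secretory peroxidases are the haem enzymes that plants send to the cell wall and vacuole. They use hydrogen peroxide to oxidise phenolic compounds, including the monolignols from which lignin is built and the tyrosines of wall glycoproteins such as extensins, and some of them also produce reactive oxygen species. They are therefore known both for stiffening walls and for loosening them, and in seedlings many are most active in roots. The Arabidopsis genes were followed here in whole seedlings of tt4-11, a line described as a null for chalcone synthase, against the wild type Col-0. Chalcone synthase, encoded by TT4, catalyses the first committed step of flavonoid synthesis.

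The genes were a list of 60 locus identifiers of the secreted peroxidase family, without ascorbate or glutathione peroxidases. Of these, 55 of the 21184 genes in the deposited table were found, and 5 listed loci (AT1G05240, AT1G05250, AT3G03670, AT3G50990 and AT4G17690) were not analysed here. The list follows a gene family, but that family was chosen by measured values, the tt4-11 against Col-0 differences in these same 7 libraries, so every count over it below describes that comparison and nothing is read from it against the share of all genes. The tt4-11 group held 3 libraries (replicates 2 to 4) and the Col-0 group 4 (replicates 1 to 4). All were polyA RNA of whole seedlings 5 days after germination, grown at 22 °C in continuous light (24 hours, about 100 µE) on medium with 2% sucrose. tt4-11 is a single mutant line, compared here with no second allele and no rescued line. Nothing in the labels says that the replicates came from separate cultures, so p-values measure the spread between these samples only.

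Values are scaled reads, meaning reads divided by a factor per library, summed over the transcript models of a gene. The libraries held 2021368 to 2205449 reads, so a gene with 10 scaled reads rests on few counts, and a library with 0 reads of a gene allows up to 3 by counting error alone. Differences are tt4-11 minus Col-0 on the scale of log2(scaled reads + 1), with a standard error (SE), and calls were made at a limma p under 0.05 after Benjamini-Hochberg adjustment over 13301 genes. TT4 had 58, 96.7 and 54.9 scaled reads in tt4-11, against 3003, 2571, 3148 and 2464 in Col-0, a difference of -5.34 (SE 0.16, adjusted p = 2.99e-12), so every library matched its label. The groups separated on the first principal component, which held 44.7% of the variance. The tt4-11 libraries lay at 26.1, 27.8 and 33.5 on it, against -43.4, -15.4, -18.2 and -10.4 in Col-0, so Col-0 replicate 1 stretched this axis. On the second, which held 14.5%, Col-0 replicates 1 and 4 lay at opposite ends, at 26.1 and -23.3. Of the peroxidase genes, 45 passed the filter on low values and 10 did not. Because whole seedlings were measured, fewer cells of a type and less RNA per cell cannot be told apart.

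The family is recognised by the stretch around the distal histidine of the haem pocket, where peroxide binds. The codons for histidine, aspartate and cysteine at that place were searched in the longest annotated transcript of each gene. They were found once in 54 of the 55 genes, PER20 being the exception. PER20 has 2 annotated models, and the one searched has a coding sequence of 747 bases, the shortest of the family. Its other model was not searched, so the gene may still hold the site. They were written in 8 different 9-base codings, and the surrounding 30 bases came in 50 different forms. Most genes share a layout, 39 of the 55 having 4 exons, and they lie on all 5 chromosomes, with 19 on chromosome 5. The stretches of the genes that the results turn on are printed 5′ to 3′ from the RefSeq annotation of TAIR10.1, with those 3 codons in capitals. They show how far the genes differ in bases even at the site they share.

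PER42: cgtaacatcttcCATGACTGCgccgttgag
PER22: cgtcttcactttCACGACTGCtttgttcgt
PER66: agaatgttcttcCACGATTGCttcatcagg
PER7: cgccttatcttcCACGATTGTggcgtcacg
PER12: cgtatacatttcCATGATTGCttcgttcag
PER33: cgtcttcacttcCATGACTGCtttgttaat
PER34: cgtcttcacttcCACGACTGCtttgttaat
PER45: cgcctcttcttcCACGATTGCttcgttcgt
PER24: agggttcattacCATGACTGCtttgttagg
AT5G17820: cgtatgcatttcCACGACTGTttcgttaag
PER32: cgtcttcacttcCACGACTGTttcgtcaat
PER71: agaatgcatttcCACGACTGTtttgtccaa

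PER33 and PER34 are nearly alike in that stretch. Their coding sequences were 90.7% identical, and 0.819% and 0.843% of the 100-base windows of their transcripts, the length of a read, were found in the other gene as well. Windows shared with another gene occurred in 6 of the 55 genes, the other pairs being PER14 with PER15 (2.95% and 2.07%) and PER37 with PER38 (0.154% and 0.186%). The other 49 genes had no such window, so reads could be split between copies only to a small extent.

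More genes of the family were lower than higher in tt4-11. Of the 45 tested genes, 10 were called lower (22.2%) and 0 higher, beside 6.55% of all genes tested called lower and 7.07% called higher. The 10 genes were PER42, PER66, PER22, PER7, PER45, PER12, PER33, AT5G17820, PER24 and PER34. At an unadjusted p under 0.05 the limma fit held 17 lower genes and 1 higher gene, beside 14.6% of all genes tested lower and 14.8% higher at that threshold. On the recovered reads edgeR and DESeq2 each called 10 of the peroxidase genes lower and 0 higher. Over all genes edgeR called 6.37% lower and 7.51% higher, and DESeq2 called 5.59% lower and 6.3% higher of the genes it gave an adjusted p. The difference was negative in 35 and positive in 10 of the tested genes, beside 51.2% of all genes tested with a negative difference. The median of the 45 was -0.34 beside -0.01 over all genes tested. All 3 tt4-11 libraries lay below all 4 of Col-0 in 13 genes, 8 of them among the 10 called, and above in 3 genes, where these shares over all genes were 12.9% and 13.7%.

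**Figure D1:**
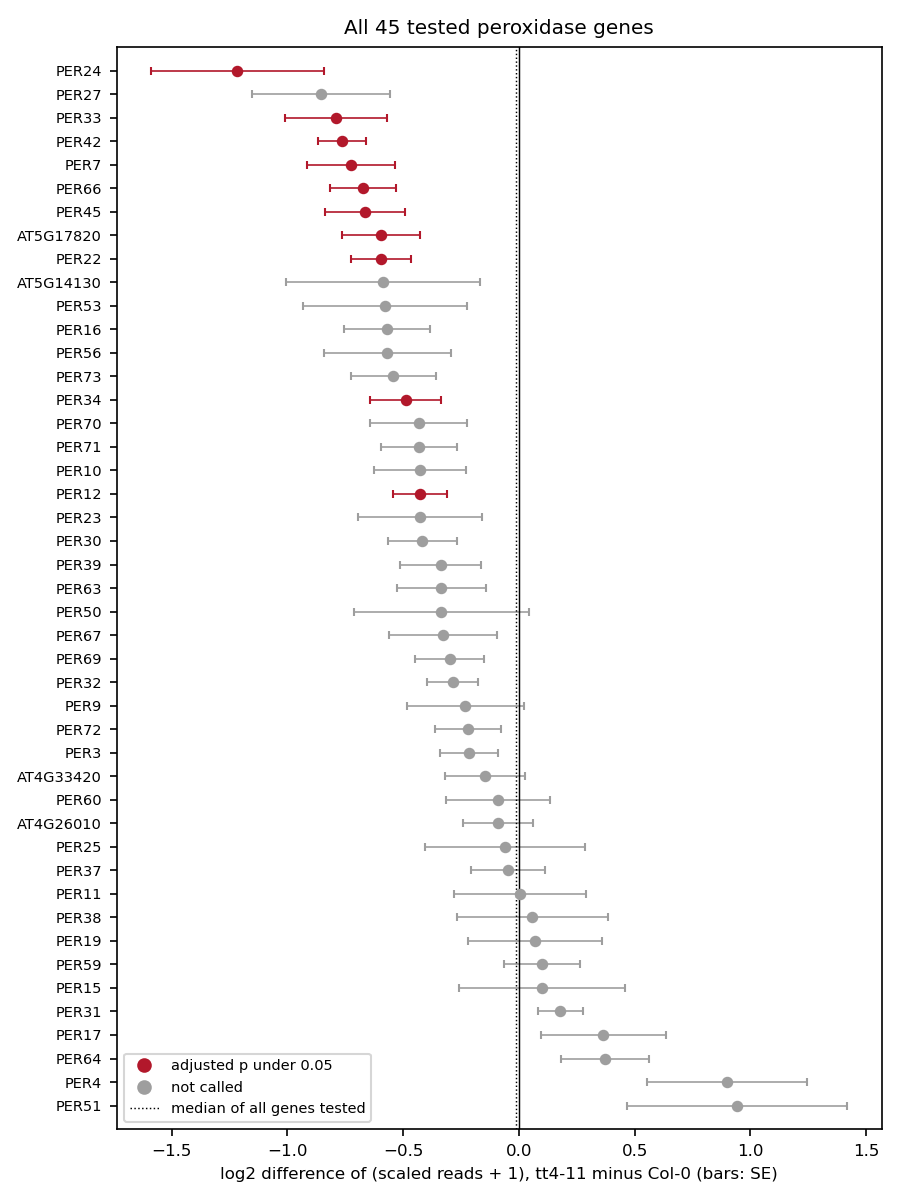
Log2 difference of scaled reads + 1, tt4-11 minus Col-0, for the 45 tested peroxidase genes (horizontal axis), with bars of 1 SE. Red points are the 10 genes called lower, grey points are not called, and the dotted line is the median of all genes tested (-0.01), to the left of which most points lie.

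Summed over the 55 genes, the peroxidases took 0.499%, 0.475% and 0.390% of the scaled reads in the tt4-11 libraries, against 0.616%, 0.634%, 0.614% and 0.578% in Col-0. The groups did not overlap, and the summed level in tt4-11 was 73.6% of that in Col-0. PER42 alone made up 41.9% of the fall in the sum, PER71 11.2% and PER32 11.1%. Without PER42 the sum in tt4-11 was 79.0% of that in Col-0.

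The count of calls moved most with a single library. tt4-11 replicate 4 was the lowest of the 7 libraries in 22 of the 45 tested genes, against 9 for tt4-11 replicate 3 and 4 for tt4-11 replicate 2. The same counts over all genes tested were not made, so these are not read as particular to the family. Relative to the Col-0 mean of each gene, the median gene stood at -0.27, -0.24 and -0.49 on the log2 scale in tt4-11 replicates 2, 3 and 4, against values of -0.06 to 0.07 in the Col-0 libraries. Each Col-0 library is part of the mean it is set against, which by itself draws its values towards that mean. Without tt4-11 replicate 4, 3 genes were called lower (PER42, PER22 and PER66) and the median difference was -0.26. In that smaller fit 470 of all genes were called lower, against 871 with all libraries.

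**Figure D2:**
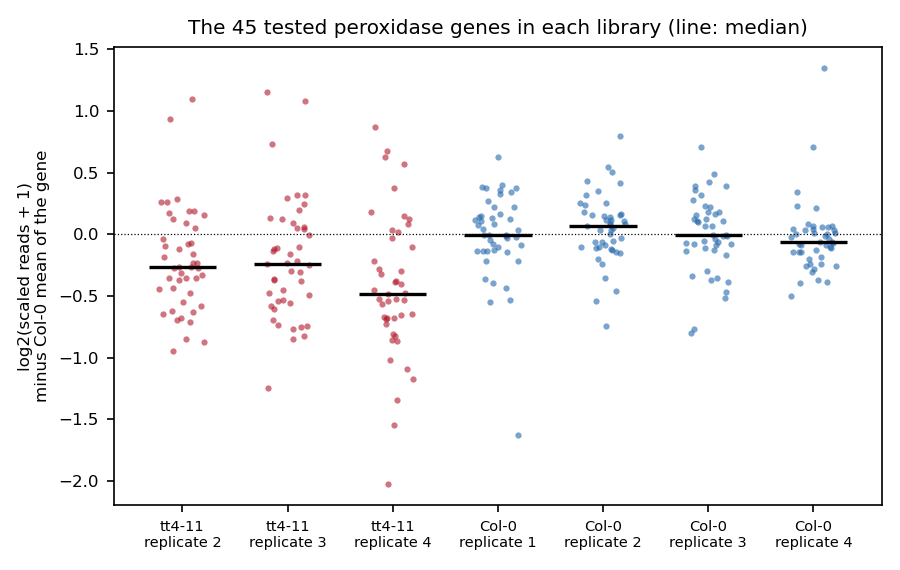
Each point is a tested peroxidase gene in a library, as its log2(scaled reads + 1) minus the mean of that gene in the 4 Col-0 libraries (vertical axis), and lines are medians. The medians of the 3 tt4-11 libraries lie at -0.27, -0.24 and -0.49, with replicate 4 the lowest, and those of Col-0, whose libraries form the mean, lie close to 0.

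Peroxidase transcripts are short and alike in length, 981 to 1829 bases with a median of 1358, beside a median of 1793 over the genes tested. Among the 5416 tested genes of that length range the median difference was -0.10 and 9.21% were called lower, so shorter genes tended to lie lower in tt4-11 in these libraries. With a trend of difference against transcript length removed, 4 peroxidase genes were called lower (PER42, PER22, PER66 and PER7), beside 4.27% of all genes, and the median of the 45 was -0.24. The part of transcript length in the other 6 calls was not tested further.

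PER42, also named PRXR1 (AT4G21960, chr4:11646109-11648644, minus strand, positions here and below in TAIR10.1), was the most abundant peroxidase of Col-0 per length. It had 2243, 1861 and 1860 scaled reads in tt4-11, against 3316, 3752, 3276 and 3139 in Col-0. All 3 tt4-11 libraries lay far below the 4 Col-0 libraries, a 1.7-fold lower level with a difference of -0.76 (SE 0.10, adjusted p = 0.000217). The call held without each library in turn and in the 11 other alternatives, with adjusted p-values up to 0.00295.

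**Figure D3:**
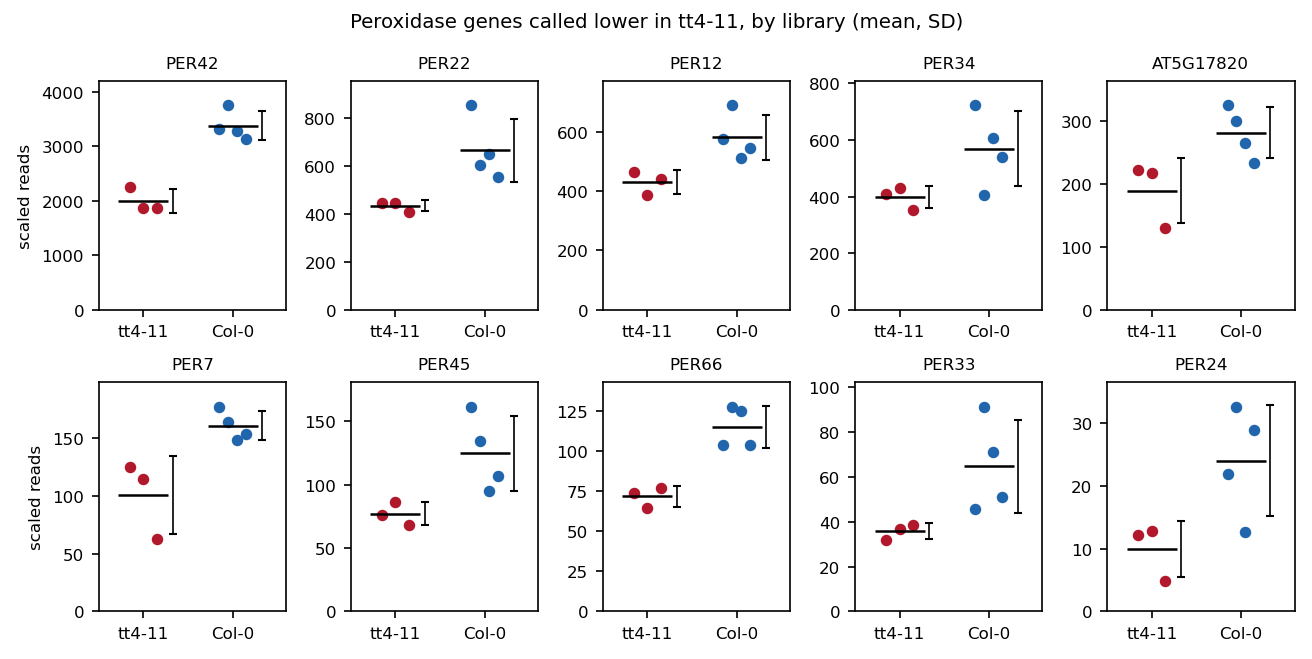
Scaled reads of the 10 peroxidase genes called lower, with a point per library, tt4-11 in red on the left and Col-0 in blue on the right of each panel (lines are means, bars SD, vertical axes start at 0). The groups do not overlap in 8 panels, and in PER34 and PER24 a Col-0 library falls among the tt4-11 values.

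PER22 (AT2G38380, chr2:16076289-16078781, plus strand) and PER23 stand in tandem, 897 bases apart, with coding sequences 90.6% identical. PER22 had 447, 446 and 408 scaled reads in tt4-11, against 853, 603, 647 and 553 in Col-0. Its groups did not overlap and the difference was -0.59 (SE 0.13, adjusted p = 0.00685). PER23 was far less abundant, with 16.8, 13.8 and 14.4 scaled reads in tt4-11, against 24.8, 23.1, 14.6 and 21 in Col-0, and its difference of -0.43 (SE 0.27) was not called (adjusted p = 0.311). No 100-base window was shared between the copies.

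PER12 (AT1G71695, chr1:26964087-26966688, plus strand), for which the files give no role, had 463, 386 and 440.1 scaled reads in tt4-11, against 575, 689, 511 and 545 in Col-0. The 3 tt4-11 libraries lay below the lowest Col-0 library and the difference was -0.43 (SE 0.12, adjusted p = 0.0231). PER45 (AT4G30170, chr4:14762819-14764636, plus strand), also without a stated role, had 75.8, 86.5 and 68.4 scaled reads in tt4-11, against 161, 135, 95.1 and 107 in Col-0, again with no overlap and a difference of -0.66 (SE 0.17, adjusted p = 0.0191). Without tt4-11 replicate 4 the differences were -0.45 for PER12 (adjusted p = 0.062) and -0.58 for PER45 (adjusted p = 0.0866).

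PER7 (AT1G30870, chr1:10991478-10993083, plus strand) had 125, 115 and 62.6 scaled reads in tt4-11, against 178, 164, 148 and 154 in Col-0. Replicate 4 of tt4-11 lay far under the other tt4-11 libraries, and the difference of -0.73 (SE 0.19, adjusted p = 0.0191) became -0.42 (adjusted p = 0.0945) without it. AT5G17820 (chr5:5887871-5890260, minus strand), whose overexpression is annotated as raising reactive oxygen species, had 222, 217 and 130.0 scaled reads in tt4-11, against 326, 301, 266 and 233 in Col-0. It showed the same low replicate 4, and its difference of -0.60 (SE 0.17, adjusted p = 0.0284) became -0.35 (adjusted p = 0.169) without that library.

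PER24 (AT2G39040, chr2:16299242-16301245, minus strand) showed the lowest difference of the tested genes at a low level, with 12.2, 12.9 and 4.82 scaled reads in tt4-11, against 22, 32.7, 12.6 and 29 in Col-0. The Col-0 value of replicate 3 lay within the tt4-11 range, so the groups overlapped. The difference was -1.22 (SE 0.37, adjusted p = 0.039), and the call was lost in 9 of 18 alternatives, with a difference of -0.81 (adjusted p = 0.188) without tt4-11 replicate 4. The 9 hold the fit without Col-0 replicate 1 again, as the unblocked fit over replicates 2 to 4.

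Peroxidases of the PRXC group are known for the apoplastic oxidative burst in defence. PER33 (PRXCA, AT3G49110, chr3:18200587-18203265, plus strand) and PER34 (PRXCB, AT3G49120, chr3:18207651-18210333, plus strand), neighbours 4385 bases apart, are annotated with roles in cell elongation and in producing hydrogen peroxide during defence. PER33 had 31.8, 36.8 and 38.5 scaled reads in tt4-11, against 45.8, 91.3, 70.8 and 51 in Col-0. PER34 was about an order of magnitude more abundant, with 408, 429.9 and 354 scaled reads in tt4-11, against 723, 405, 606 and 541 in Col-0. PER33 was separated between the groups while in PER34 Col-0 replicate 2 fell among the tt4-11 libraries.

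The differences were -0.79 (SE 0.22, adjusted p = 0.0257) for PER33 and -0.49 (SE 0.15, adjusted p = 0.0431) for PER34. Without tt4-11 replicate 4 they were -0.85 (adjusted p = 0.0551) and -0.41 (adjusted p = 0.172), and the PER34 call was lost in 10 of 18 alternatives. The 10 hold the fit without Col-0 replicate 1 again, as the unblocked fit over replicates 2 to 4. PER32, whose coding sequence is 84.4% identical to that of PER34, was the second most abundant peroxidase in Col-0 and had 1978, 1695 and 1487 scaled reads in tt4-11, against 1903, 2253, 1991 and 2202 in Col-0. Its groups overlapped and its difference of -0.29 was not called (adjusted p = 0.0953). PER53 (PA2), annotated as wound-responsive, had 8.42, 15.7 and 5.78 scaled reads in tt4-11, against 18.1, 16.3, 10.7 and 13 in Col-0, with overlapping groups and a difference of -0.58 (adjusted p = 0.297).

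Lignin builds the walls of water-conducting vessels, and PER66 (AT5G51890, chr5:21090956-21092410, minus strand) is annotated as lignifying tracheary elements in roots. It had 73.9, 64.4 and 77 scaled reads in tt4-11, against 104, 128, 125 and 104 in Col-0. The groups were fully separated, with a difference of -0.67 (SE 0.14, adjusted p = 0.00629) that stayed called in all 18 alternatives. PER71, a wall-bound peroxidase annotated as lignifying cell walls and as induced by low osmolarity, was the third most abundant per length in Col-0. It had 1198, 1282 and 786 scaled reads in tt4-11, against 1565, 1216, 1840 and 1216 in Col-0, so replicate 4 of tt4-11 lay apart from overlapping groups, and its difference of -0.43 was not called (adjusted p = 0.094).

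The other lignin-annotated genes were not called. PER17, a gene regulated by AGL15 and annotated in lignified tissue, had 17.8, 23.9 and 35.6 scaled reads in tt4-11, against 16.2, 17.3, 23.3 and 20 in Col-0, and PER25 had 8.42, 9.21 and 11.6 scaled reads in tt4-11, against 7.64, 7.69, 14.6 and 12 in Col-0. Their groups overlapped, with differences of 0.36 (adjusted p = 0.395) and -0.06 (adjusted p = 0.929). PER52 did not pass the filter, with 3, 4 and 4 reads in tt4-11, against 10, 2, 8 and 4 in Col-0. Of the 4 tested genes whose deposited description names lignification or lignified tissue (PER17, PER25, PER66 and PER71), 1 was called lower and 0 higher, beside 6.55% and 7.07% of all genes tested. The wider lignin group used for choosing which genes to describe also held PER4 (0.90, adjusted p = 0.0944) and AT4G33420 (-0.15, adjusted p = 0.619), and 1 of its 6 tested genes was called, in the lower direction, beside the same 6.55% of all genes.

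Casparian strip peroxidases, which polymerise the lignin barrier of the root endodermis, gave no call, beside 13.6% of all genes tested called in either direction. PER3 (RCI3), PER9, PER39, PER64 and PER72 were all tested, 4 with a negative difference. PER39 had 213, 258 and 156 scaled reads in tt4-11, against 290.4, 244, 323 and 196 in Col-0 (difference -0.34, adjusted p = 0.216). PER64 had 40.2, 43.3 and 54.9 scaled reads in tt4-11, against 37.3, 32.7, 37.8 and 33 in Col-0, with every tt4-11 library above every Col-0 library (difference 0.37, adjusted p = 0.204). The groups of PER39 overlapped.

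PER72 lay on the other side of Col-0. It had 63.6, 64.4 and 64.5 scaled reads in tt4-11, against 69.7, 78.8, 74.7 and 77 in Col-0, with every tt4-11 library below every Col-0 library (difference -0.22, adjusted p = 0.328). PER3, which is also cold-inducible, had 165, 137 and 138 scaled reads in tt4-11, against 160.5, 188, 154 and 177 in Col-0 (difference -0.21, adjusted p = 0.276). PER9 had 15, 20.3 and 14.4 scaled reads in tt4-11, against 20.1, 17.3, 20.4 and 20 in Col-0 (difference -0.23, adjusted p = 0.583). PER3 and PER9 overlapped between the groups, and no member of the barrier set passed the test, beside the same 13.6% of all genes.

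Peroxidases annotated at the micropylar endosperm, where the radicle leaves the seed, are PER4, PER16 and PER69, with PER71 above. PER4 had 14, 15.7 and 11.6 scaled reads in tt4-11, against 6.69, 9.61, 6.79 and 5 in Col-0. It was the lowest tested gene by mean, and every tt4-11 library exceeded every Col-0 library, with a difference of 0.90 (SE 0.34) that was not called (adjusted p = 0.0944). PER16 had 60.8, 40.5 and 38.5 scaled reads in tt4-11, against 67.8, 61.5, 79.6 and 65 in Col-0. In PER16 the tt4-11 libraries lay below the Col-0 libraries, with a difference of -0.57 just outside the threshold (adjusted p = 0.0526), and it was called without tt4-11 replicate 2 (-0.77, adjusted p = 0.0242).

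PER69 had 298, 374 and 226 scaled reads in tt4-11, against 359, 384, 409.5 and 301 in Col-0, with overlapping groups and a difference of -0.30 (adjusted p = 0.199). Seed storage and oil body transcripts, which mark remnants of the seed, also differed between the libraries. Of 4 such markers 3 were tested and 2 were called higher, beside 7.07% of all genes tested. They were OLEO1 at 1.74 (adjusted p = 0.0376) and OLEO2 at 2.46 (adjusted p = 0.0217). The OLEO1 call was lost in 5 of the 7 fits with a library left out, those lacking tt4-11 replicate 2, tt4-11 replicate 3 and each Col-0 library but replicate 3, with adjusted p-values up to 0.211. The OLEO2 call was lost in 2 of them, those lacking tt4-11 replicate 2 and tt4-11 replicate 3, with adjusted p-values up to 0.117. SESA1, not called with all libraries, was called higher without tt4-11 replicate 4 (1.98, adjusted p = 0.0188). The fourth, CRA1, had 3, 1 and 5 reads in tt4-11, against 1, 1, 0 and 0 in Col-0. The summed level of the list was 452, 279 and 76.1 in tt4-11, against 43.0, 82.7, 158 and 26 in Col-0. tt4-11 replicate 4, the library with the lowest peroxidase sum, had the lowest seed sum of its group, and the part of seed transcripts in the peroxidase values was not tested.

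Root hairs are tip-growing cells whose walls are set by peroxidases and extensins together. PER60 (RHS18) and PER73 (RHS19) carry root-hair-specific names. The wider root hair group used for choosing which genes to describe also held PER7, AT4G26010 and PER69, and 1 of its 5 tested genes was called lower, PER7 (-0.73, adjusted p = 0.0191), beside 6.55% of all genes tested. PER73 had 117, 128 and 74.2 scaled reads in tt4-11, against 192, 146, 123 and 152 in Col-0, with Col-0 replicate 3 inside the tt4-11 range, and its difference of -0.54 missed the threshold (adjusted p = 0.0595) but passed it without Col-0 replicate 3 (-0.64, adjusted p = 0.0455). PER60 had 25.3, 29.5 and 21.2 scaled reads in tt4-11, against 22.9, 31.7, 25.2 and 28 in Col-0, with overlapping groups and a difference of -0.09 (adjusted p = 0.828). AT4G26010 had 119.8, 119.7 and 81.9 scaled reads in tt4-11, against 102, 112, 117 and 118 in Col-0 and a difference of -0.09 (adjusted p = 0.739), and 1304 bases of it overlap AT4G26020 on the opposite strand.

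The kit marks strand, but how strand was used in counting is not given in the sources used here, so AT4G26010 and its partner may not be fully separated. The same limit touches PER66 and PER7, which overlap a neighbour on the opposite strand by 118 and 82 bases. It also touches PER40 (869 bases), PER43 (423), PER63 (288) and PER38 (143). Shorter overlaps of this kind lie in AT4G33420 (78 bases), PER64 (34), AT5G14130 (7) and PER73 (4). The 5 root hair cell markers were all tested, none of them being at 0, with a median difference of -0.68. Their summed level was 196, 204 and 152 in tt4-11, against 315, 264, 241 and 223 in Col-0, without overlap, and 1 of the 5, LRX1, was called lower, beside 6.55% of all genes tested. Their part in the peroxidase values was not tested.

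PER37, annotated in vascular bundles with a dwarf phenotype on overexpression, had 259, 277 and 159.9 scaled reads in tt4-11, against 219, 223, 262 and 231 in Col-0. Its groups overlapped and its difference was -0.05 (adjusted p = 0.879). Its neighbour PER38, 93.8% identical in coding sequence and 3706 bases away, had 15.9, 24.9 and 8.67 scaled reads in tt4-11, against 16.2, 13.5, 13.6 and 15 in Col-0 and a difference of 0.06 (adjusted p = 0.927). AT4G33420 had 88, 65.4 and 79 scaled reads in tt4-11, against 77.4, 74, 115 and 80 in Col-0 and a difference of -0.15 (adjusted p = 0.619). PER40, which acts with PER9 in the tapetum of anthers, did not pass the filter, with 4, 3 and 2 reads in tt4-11, against 7, 5, 5 and 4 in Col-0.

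Per kb of transcript, the order at the top of the family was PER42, PER32, PER71, PER22 and PER12 in Col-0. PER42 had 1017 to 1226 scaled reads per kb in tt4-11, against 1716 to 2052 in Col-0, and PER32 had 965 to 1284 scaled reads per kb in tt4-11, against 1235 to 1462 in Col-0. In Col-0 the ranges of these 2 genes did not overlap, while in tt4-11 they did, so the lead of PER42 was not seen in tt4-11. PER71 followed with 586 to 955 scaled reads per kb in tt4-11, against 906 to 1371 in Col-0. PER22 and PER12 came next, with overlapping ranges in Col-0, and these 5 genes together held 65.2% of the summed level in Col-0.

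PER31 was among the abundant genes and did not follow the family. It had 502, 505 and 486 scaled reads in tt4-11, against 474, 422, 423 and 442 in Col-0, so every tt4-11 library was above every Col-0 library, with a small difference of 0.18 (SE 0.10) that was not called (adjusted p = 0.236). PER59 and PER10 were also well measured. PER59 had 188, 172 and 177 scaled reads in tt4-11, against 195, 209, 116 and 164 in Col-0 and a difference of 0.10 (adjusted p = 0.733), and PER10 had 214, 178 and 154 scaled reads in tt4-11, against 376, 263, 187 and 188 in Col-0 and a difference of -0.43 (adjusted p = 0.163). Both overlapped between the groups.

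Where the mean over all libraries was at least 50 scaled reads, 9 of 25 tested peroxidase genes were called lower, beside 9.7% of all genes tested at that level, and 23 had a negative difference. Among the 20 tested peroxidase genes under 50, 1 was called lower, beside 2.78% of all genes tested at that level, and 12 were negative. Over both levels together, 51.2% of all genes tested had a negative difference. PER51, with an SE of 0.48, had 30.9, 32.2 and 21.2 scaled reads in tt4-11, against 3.82, 14.4, 16.5 and 37 in Col-0, and the spread lay within Col-0. Its difference of 0.94 was not called (adjusted p = 0.202), but it was without Col-0 replicate 4 (1.39, adjusted p = 0.0379).

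**Figure D4:**
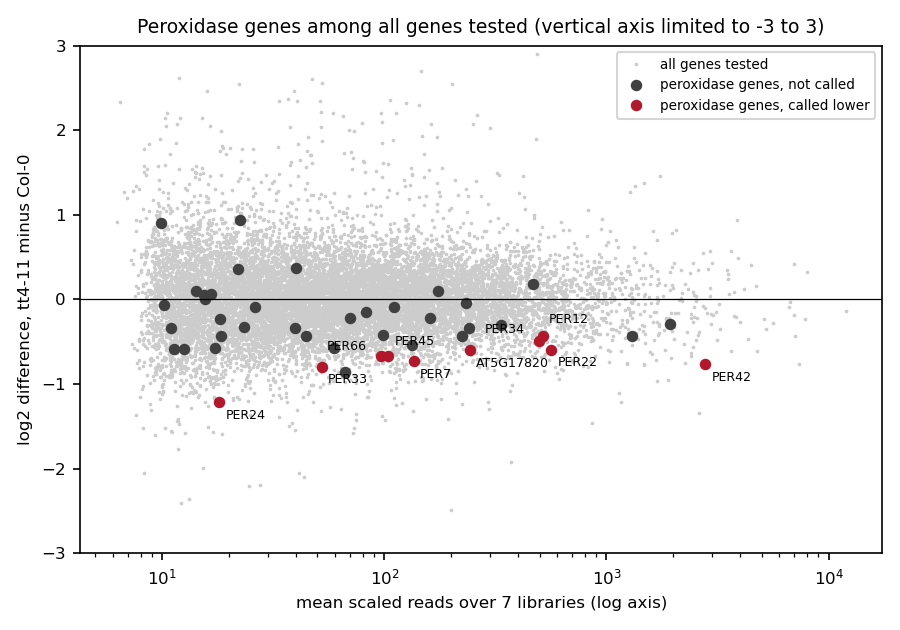
Mean scaled reads over the 7 libraries (log axis) against the log2 difference, tt4-11 minus Col-0, for all 13301 genes tested (pale points), the uncalled peroxidase genes (dark) and the 10 called lower (red, named). The called genes run from PER24, at a mean under 50, to PER42, the most abundant, and a few genes beyond the limits of the vertical axis are not drawn.

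Among the remaining tested genes, PER27 had 42.1, 70.9 and 26 scaled reads in tt4-11, against 100.3, 46.1, 103 and 78 in Col-0, and its difference of -0.86 (SE 0.30, adjusted p = 0.067) was larger than that of 9 called genes but its spread was wide. PER30 had 71.1, 102 and 76.1 scaled reads in tt4-11, against 113, 112, 104 and 111 in Col-0, with the tt4-11 libraries below the Col-0 libraries and a difference of -0.42 (adjusted p = 0.0719). PER56 and PER67 were also separated in this direction, with differences of -0.57 (adjusted p = 0.177) and -0.33 (adjusted p = 0.372). PER63 and PER70 stood at -0.34 and -0.43 (adjusted p = 0.265 and 0.18). PER11, PER15, PER19, PER50 and AT5G14130 had group means of 8.52 to 16.9 scaled reads, with differences of 0.0048, 0.10, 0.07, -0.34 and -0.59, none of them called.

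The other 10 genes lay under the filter. PER5, PER14, PER20, PER21, PER40, PER43, PER52, PER54, PER58 and PER68 reached at most 17.5 scaled reads in any library. PER21 was the gene just outside, with a mean of 9.89 and 5, 7 and 8 reads in tt4-11, against 8, 18, 18 and 8 in Col-0. PER4, at a mean of 9.90, was the one just inside. PER14 and PER58 had 0 reads in all 3 tt4-11 libraries and 2 reads each in the 4 Col-0 libraries together, so both groups were at or under the floor.

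Family genes outside the list gave no call, beside 13.6% of all genes tested called in either direction. Of 13 such genes 11 were in the table and 5 were tested. PER35, the most abundant of them, had 98.3, 85.6 and 85.7 scaled reads in tt4-11, against 132, 138, 93.2 and 143 in Col-0. Its groups overlapped, and the difference of -0.47 (SE 0.16) did not pass the threshold (adjusted p = 0.0554).

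Several peroxidase genes lie next to each other, and 12 pairs stood within 10000 bases. Differences within pairs were not uniform. PER50 and PER51, 1446 bases apart and 92.4% identical in coding sequence, had differences of -0.34 and 0.94, both uncalled and with SEs of 0.38 and 0.48. PER69, PER70 and PER71 form a run on chromosome 5 with coding identities of 69.0% and 63.2% between neighbours. Their differences of -0.30, -0.43 and -0.43 were alike and uncalled.

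The 250 bases before the annotated start of each gene were searched on both strands. The letters TTGAC, the core of the W-box that WRKY factors bind, were found in 7 of the 10 called genes, in 10 of 35 other tested peroxidase genes and in 44.6% of all tested genes. The G-box CACGTG was found in 0 of 10, 0 of 35 and 7.29%. TATAAA was found in 4 of 10, 15 of 35 and 46.0%, and the AC element ACCNANC of lignin genes in 2 of 10, 12 of 35 and 29.0%. The evening element AAAATATCT was found in 0 of 10, 1 of 35 and 2.46%, and the root hair element in 0 of 10, 2 of 35 and 0.768%. These are matches of letters only, and a window without a match says only that the letters are not there.

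Promoters of 5 called genes are printed 5′ to 3′ on the strand of the gene from TAIR10.1, which may not be the build of the authors, with the matched letters of the searched motifs in capitals. PER42 and PER33 held none of the motifs, PER22 held a W-box core and an AC element, and PER34 and PER24 held W-box cores and TATA boxes. PER33 and PER34 are shown together because their coding sequences are alike and their levels are not.

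PER42 (chr4:11648645-11648894, minus strand): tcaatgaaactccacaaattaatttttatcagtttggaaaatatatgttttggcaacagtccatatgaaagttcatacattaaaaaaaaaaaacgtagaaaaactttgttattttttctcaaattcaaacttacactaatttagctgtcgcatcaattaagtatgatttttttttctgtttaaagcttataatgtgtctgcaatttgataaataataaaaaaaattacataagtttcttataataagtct
PER22 (chr2:16076039-16076288, plus strand): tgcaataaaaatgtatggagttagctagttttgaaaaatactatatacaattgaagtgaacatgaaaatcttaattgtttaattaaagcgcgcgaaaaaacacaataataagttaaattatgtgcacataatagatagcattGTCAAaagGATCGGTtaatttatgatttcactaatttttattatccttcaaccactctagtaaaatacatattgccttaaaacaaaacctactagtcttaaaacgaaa
PER24 (chr2:16301246-16301495, minus strand): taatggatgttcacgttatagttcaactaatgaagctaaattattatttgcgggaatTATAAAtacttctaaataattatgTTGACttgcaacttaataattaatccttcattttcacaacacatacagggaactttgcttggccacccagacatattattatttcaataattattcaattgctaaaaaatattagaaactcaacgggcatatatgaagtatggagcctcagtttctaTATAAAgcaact
PER33 (chr3:18200337-18200586, plus strand): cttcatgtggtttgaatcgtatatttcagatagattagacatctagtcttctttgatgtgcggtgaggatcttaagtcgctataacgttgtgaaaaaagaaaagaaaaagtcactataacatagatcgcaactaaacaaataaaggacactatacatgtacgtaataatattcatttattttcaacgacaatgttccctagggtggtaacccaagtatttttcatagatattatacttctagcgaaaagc
PER34 (chr3:18207401-18207650, plus strand): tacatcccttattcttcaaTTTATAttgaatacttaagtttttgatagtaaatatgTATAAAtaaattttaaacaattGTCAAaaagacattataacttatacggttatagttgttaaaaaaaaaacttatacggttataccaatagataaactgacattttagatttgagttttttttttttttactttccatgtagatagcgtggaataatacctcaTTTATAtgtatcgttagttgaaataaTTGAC

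Genes that work with peroxidases were read from lists of the same pathway, which were drawn up with earlier results of these data known. Extensins, the wall glycoproteins that peroxidases crosslink, and the prolyl hydroxylases that prepare them were read as 1 list. Of 8 tested genes 5 were called lower and 0 higher, beside 6.55% of all genes tested called lower and 7.07% called higher, with a median of -0.68 beside -0.01 over all genes. EXT3, the most abundant, had 926, 927 and 803 scaled reads in tt4-11, against 1552, 1396, 1757 and 1342 in Col-0. Its groups did not overlap and its difference was -0.77 (SE 0.11, adjusted p = 0.000334).

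EXT4 had 90.8, 76.4 and 63.6 scaled reads in tt4-11, against 188, 109.6, 169.8 and 115 in Col-0, with a difference of -0.89 (SE 0.19, adjusted p = 0.00654). EXT6 had 47.7, 41.4 and 34.7 scaled reads in tt4-11, against 124, 82.7, 79.6 and 54 in Col-0, with a difference of -0.98 (SE 0.23, adjusted p = 0.00972). LRX1, a root hair protein with leucine-rich repeats and an extensin tail, had 38.4, 38.7 and 22.1 scaled reads in tt4-11, against 66.9, 46.1, 60.2 and 60 in Col-0, with a difference of -0.83 (SE 0.22, adjusted p = 0.0192). In each of them the tt4-11 libraries lay below the Col-0 libraries. The prolyl hydroxylase P4H2 was the fifth called gene, at -0.52 (SE 0.14, adjusted p = 0.0194). Without tt4-11 replicate 4 the differences were -0.86 for EXT6 (adjusted p = 0.0511), -0.57 for LRX1 (adjusted p = 0.107) and -0.39 for P4H2 (adjusted p = 0.118), none of them called. The P4H2 call was also lost without tt4-11 replicate 2 (-0.51, adjusted p = 0.0641). EXT3 and EXT4 kept their calls with each library left out.

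**Figure D5:**
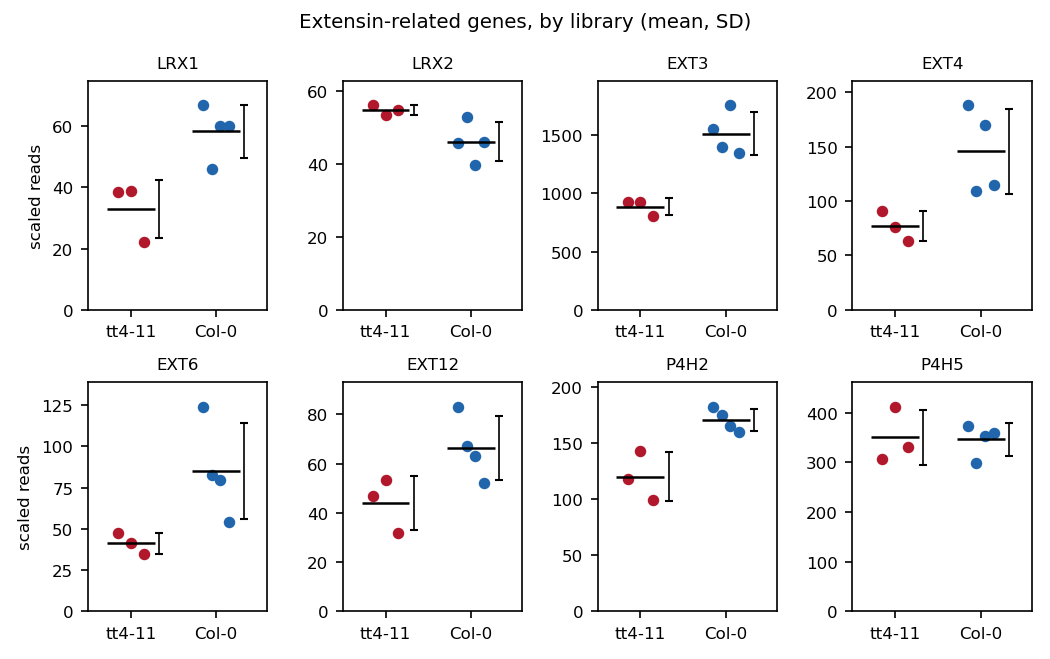
Scaled reads of the 8 extensin-related genes, with a point per library, tt4-11 in red on the left and Col-0 in blue on the right (lines are means, bars SD, vertical axes start at 0). LRX1, EXT3, EXT4, EXT6 and P4H2 were called lower, with differences of -0.52 to -0.98, and LRX2, EXT12 and P4H5 were not called.

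NADPH oxidases supply the superoxide from which peroxidases draw hydrogen peroxide. Of 10 genes 8 were in the table and 5 tested, with 1 called higher and 0 lower, beside the same 7.07% and 6.55% of all genes tested. RBOHF, which is active in defence and in building the Casparian strip, had 181, 228 and 189.7 scaled reads in tt4-11, against 94.6, 136, 143 and 116 in Col-0. Every tt4-11 library exceeded every Col-0 library, with a difference of 0.71 (SE 0.15, adjusted p = 0.00592). The same separation was seen in RBOHD (0.25, adjusted p = 0.124) and RBOHE (0.85, adjusted p = 0.103), neither of them called. RBOHC stood at -0.04 (adjusted p = 0.917), with overlapping groups. RBOHI had 0.936, 2.76 and 8.67 scaled reads in tt4-11, against 10.5, 7.69, 15.5 and 11 in Col-0, with overlapping groups. Its difference of -1.52 (SE 0.50) was not called (adjusted p = 0.0546), but it was called lower without tt4-11 replicate 4 (-2.14, adjusted p = 0.021). Laccases polymerise lignin alongside peroxidases using oxygen, and of 3 tested genes 1, LAC4, was called lower, beside 6.55% of all genes tested. Its difference was -0.67 (SE 0.21, adjusted p = 0.0437), with 27.1, 24.9 and 33.7 scaled reads in tt4-11, against 62.1, 43.3, 40.8 and 40 in Col-0. That call was lost in 6 of the 7 fits with a library left out, with adjusted p-values up to 0.157.

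Casparian strip partners gave no call among 5 tested genes of 8, beside 13.6% of all genes tested called in either direction. The transcription factor MYB36 stood at -0.55 (adjusted p = 0.276) and the scaffold protein CASP1 at -0.32 (adjusted p = 0.364). Regulators known to act on peroxidase genes gave no call among 4 tested genes of 8, beside the same 13.6% of all genes. MYBS2 stood at 0.18 (adjusted p = 0.495) and RSL4, a driver of root hair growth, at 0.49 (adjusted p = 0.49). Endodermis markers (4 tested) and xylem vessel markers (4 tested) had 0 calls, beside the same 13.6%, and their summed levels overlapped between the groups. For endodermis they ran over 354 to 424 scaled reads in tt4-11 and 309 to 366 in Col-0. For xylem they ran over 430 to 481 in tt4-11 and 358 to 515 in Col-0. Most of each sum came from a single gene. SCR, of the endodermis list, had 273, 286 and 343 scaled reads in tt4-11, against 260, 228, 239 and 274 in Col-0. XCP2, of the xylem list, had 281, 249 and 291 scaled reads in tt4-11, against 277, 286, 196 and 236 in Col-0. Of 5 shoot markers 1 was called higher and 2 lower, beside 7.07% and 6.55% of all genes tested, with summed levels of 14559 to 17751 in tt4-11 and 17374 to 19661 in Col-0.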

How the data were processed

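The authors deposited 1 table of transcript models with a signal value per library, which the file shows to be counts divided by a factor per library relative to Col-0 replicate 4, whose column holds the counts themselves. Dividing by each column's step gave whole reads in 100% of values (tolerance 0.01). Per the submitters' processing notes TopHat2, HISAT2, HTSeq and DESeq2 were used, and per the labels' protocols the libraries were stranded, polyA-selected and sequenced as single reads. The sources used here give neither versions nor a genome build.

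Of 23052 rows, 1 repeated model was dropped, and models were summed per gene. Genes passing filterByExpr (minimum count 10) were tested with limma 3.58.1 (trend option) in R 4.3.3 on log2(value + 1), 3 tt4-11 against 4 Col-0 libraries, two-sided, with Benjamini-Hochberg adjustment over 13301 genes. The fit was run on simulated data with the same dispersion for every gene and no outlying library. That setting is simpler than these libraries and says nothing on the calls made here. edgeR 4.0.16 and DESeq2 1.42.0 on recovered reads, and the other settings named under the dependence on processing, were alternatives. Libraries of a group differed beyond sampling noise (2.05 to 5.44 as the ratio of chi-square to its degrees of freedom), so none was counted as a repeat of another.

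The members and all gene lists were chosen with earlier results of these data known. Values per library are given for called members, the 5 most abundant per kb and members with a stated role. Up to 4 called genes of each further list are named by lowest p, or 2 where none was called. P4H2, RBOHC, RBOHD, RBOHE, RBOHI, SCR, XCP2, SESA1, PER35 and the members described by separation or level were added after their values were seen. Sequences, lengths and positions come from RefSeq's TAIR10.1 annotation, read with Biopython 1.88.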

Additional observations from a re-analysis of the deposited data

Results flagged for a closer look

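In 45 groups of 4 Col-0 libraries, 1 for each tested peroxidase gene, 2 held a library far from the other 3 by Dixon's criterion, where chance gives about 1 in 20. For PER9 the gap of Col-0 replicate 2, at 17.3 scaled reads, was 0.877 of the group's range in scaled reads, above the critical value for 4 libraries. For AT4G33420 the gap of Col-0 replicate 3, at 114.5 scaled reads, was 0.852 of the range. Neither gene was called.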

How the results depend on the processing

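PER42, PER22 and PER66 stayed called lower in all 18 alternatives, and PER7 in all but the fit without tt4-11 replicate 4. The unblocked fit over replicates 2 to 4 is among the 18 but holds the same libraries as the fit without Col-0 replicate 1. A call lost in that fit is therefore counted again. Calls were also lost without Col-0 replicate 2 (PER12, PER24, PER33, AT5G17820), Col-0 replicate 3 (PER33, PER34, AT5G17820), Col-0 replicates 1 and 4 (PER24, PER34), tt4-11 replicate 2 (PER24, PER33, PER34, PER45) and tt4-11 replicate 3 (PER12, PER24, PER33, PER34), with adjusted p-values up to 0.126. Calls were gained in PER27 (without Col-0 replicate 2 or tt4-11 replicate 3), PER30 (without tt4-11 replicate 3) and PER32 (without Col-0 replicate 1). The count of peroxidase genes called lower ran over 3 to 9 (10 with all libraries) when each library was left out in turn, and the count called higher over 0 to 1, the 1 being PER51 without Col-0 replicate 4. The lower count was 4 with the length trend removed, an alternative chosen after seeing the data. Over all genes, 426 to 925 were called higher and 437 to 857 lower with a library left out, against 940 and 871 with all, and 567 lower with the length trend removed. The further pathway genes called lower ran over 3 to 7, against 6 with all, the 3 without tt4-11 replicate 4 being EXT3, EXT4 and RBOHI. Correlations of same-numbered deviations were small, at 0.0584, 0.0166 and 0.0644. Differently numbered pairs ran over -0.0958 to 0.104, though each same-numbered value was the highest of its Col-0 library. Whether the replicate numbers pair the libraries was therefore not settled. Over replicates 2 to 4 the replicate block gave 12 lower peroxidase genes, against 9 without the block. The counts of lower genes over all genes were 784 with the block and 767 without it.

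Differences near 0 changed sign, none of them called. Over replicates 2 to 4, with the replicate block or without it, PER11 stood at -0.13 and PER15 at -0.084. With the length trend removed, PER25 stood at 0.089, PER37 at 0.043 and PER60 at 0.024. With a library left out in turn, the differences ran over -0.18 to 0.13 in PER11, -0.084 to 0.34 in PER15, -0.099 to 0.19 in PER19, -0.18 to 0.028 in PER25 and -0.19 to 0.20 in PER37. They ran over -0.28 to 0.43 in PER38, -0.18 to 0.091 in AT4G26010, -0.072 to 0.21 in PER59, -0.20 to 0.026 in PER60 and -0.0053 to 0.35 in MYBS2.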
